A study of Rattus norvegicus with 82 samples.

Results

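Gpd1 is 1 of the 14217 genes that the platform annotation names on this rat expression array, and 2 of the 31042 probe sets analysed carry its symbol, 1371363_at and 1369560_at. The gene was chosen by its measured PM minus AM change and its differences between adrenal treatments on these same arrays. Its PM minus AM changes and its treatment differences are therefore given as values without a test. Tests are given for differences between brain regions, which the choice of the gene did not use, and for the changes of other genes. The lists of those genes were chosen with earlier results of these data known. Their counts and p-values are therefore not independent of these data. Unless the other is named, values are from 1371363_at, which had the higher mean signal of the 2.

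Gpd1 encodes cytosolic glycerol-3-phosphate dehydrogenase, which reduces dihydroxyacetone phosphate, an intermediate of glycolysis, to glycerol 3-phosphate with NADH. The product is either oxidised again by the mitochondrial enzyme Gpd2, which completes the glycerol phosphate shuttle for reducing equivalents, or used as the backbone of glycerolipids, including those of myelin. In rat brain the enzyme is a classical marker of oligodendrocytes, and adrenal glucocorticoids, of which corticosterone is the main one in the rat, are known to induce it. Corticosterone secretion follows a daily rhythm in intact rats and ends when the adrenal glands are removed.

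Total RNA from rat brain was measured on 82 arrays, of which 80 could be placed by region, treatment and time of day. Each region had the treatments ADX, pADX and Sham, sampled at PM and at AM, with 2 arrays a group. The regions were the locus coeruleus, dorsal raphe, hippocampus, septum, hypothalamus, frontal cortex and amygdala. ADX is the usual short form for removal of the adrenal glands and Sham for the control operation, while the sources used here do not give the meaning of the p in pADX, nor strain, sex, age or clock times. Frontal cortex ADX AM and Sham AM held 1 array each, and the hippocampus had no pADX AM array. Both hippocampal pADX arrays are labelled PM, and this label is in doubt. The labels do not say whether arrays came from separate animals, from pools or from several regions of 1 animal, so p-values measure only the spread between these samples, which may be technical. For the septum, dorsal raphe, locus coeruleus and hypothalamus the titles contradict themselves: they open with another tissue, frontal cortex or hippocampi, as the recorded tissue source does, and then give a short code. Region was taken from that code, which the sample description spells out.

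Markers fixed for the regions were highest where the codes place them for the frontal cortex, septum, hypothalamus, hippocampus and dorsal raphe. The noradrenergic marker Dbh reached a mean log2 signal of 8.34 in the locus coeruleus and lay at 4.2 or below in the other 6 regions. Of the other 3 locus coeruleus markers, Slc6a2 and Phox2a were also highest there, at 4.56 and 5.52, while Th, needed for all catecholamines, averaged 8.74 there, 8.77 in the hypothalamus and 8.54 in the dorsal raphe. The serotonin transporter gene Slc6a4 averaged 9.61 in the locus coeruleus, against 10.7 in the dorsal raphe and at most 4.15 in the other 5 regions. None of the 3 amygdala markers was highest in the amygdala. Signal is given after quantile normalization, with a floor of 16, which is 4 on the log2 scale. The deposited arrays had been left in different scaling states. A mean trimmed by 2% at each end was 150.04 to 150.05 on 45 arrays and ran from 34.1 to 171 on the other 37. The number of arrays limits the precision of every value.

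In Sham rats Gpd1 signal was higher at PM than at AM in all 7 regions, by 1.82-fold in the frontal cortex up to 3.22-fold in the dorsal raphe. In ADX rats the PM minus AM difference lay between -0.12 and 0.30 on the log2 scale. In pADX rats 5 of 6 regions were lower at PM than at AM. Both Sham PM arrays stood above every other array of their region in 7 of 7 regions, and every ADX array stood below every other array in 7 of 7. The share of all probe sets that separate in this way was not counted. The shares that follow are of another kind, an adjusted p on values averaged over 5 regions. Over all probe sets, 0.0773% passed an adjusted p of 0.05 in PM against AM of Sham, 0.029% in the same contrast of ADX and 0.00966% in that of pADX. In bulk tissue, a change in the number of cells that express the gene and a change in RNA per cell cannot be told apart.

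In the dorsal raphe, ADX arrays read 154 and 158 at PM, against 149 and 119.8 at AM. The pADX arrays there read 204 and 269 at PM, against 289 and 286 at AM. Sham arrays read 535 and 769 at PM, against 202 and 197 at AM. The dorsal raphe thus held the highest single Gpd1 reading of the series, a Sham PM array, and its Sham PM minus AM difference was 1.69 on the log2 scale. Of its 4 Sham arrays, the 2 PM arrays were at the common deposited scale and the 2 AM arrays were not, and the part of this in the difference was not tested.

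The locus coeruleus gave 192 and 153 in ADX rats at PM, against 150.3 and 129 at AM. Readings in pADX rats were 239 and 247 at PM, against 316 and 234 at AM, and these overlapped. Sham rats gave 606 and 599 at PM, against 228 and 226 at AM. The replicate Sham arrays were close to each other here, and PM exceeded AM by 1.41 on the log2 scale, or 2.66-fold. All 4 Sham arrays of this region shared the common deposited scale, and their values as deposited were 727 and 708 at PM, against 273 and 267 at AM.

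Hippocampal ADX arrays read 155 and 139 at PM, against 126 and 164 at AM, so the times overlapped. The pADX arrays read 234 and 230.1, both under the doubtful PM label. Sham arrays read 605 and 454 at PM, against 236 and 200.3 at AM, a difference of 1.27 on the log2 scale. Its ADX arrays spanned the series' whole range of deposited scales, with trimmed means from 34.1 to 171. The hippocampal pADX values lay among the Sham AM values and far from Sham PM, whichever time of day they belong to.

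Septal signal in ADX rats was 147 and 134 at PM, against 158 and 147 at AM. It was 189 and 221 at PM in pADX rats, against 239 and 263 at AM. Sham rats had 542 and 497 at PM, against 229 and 169.8 at AM. In the septum all arrays were at the common scale, both ADX and pADX read lower at PM than at AM, and Sham read 2.63-fold higher.

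Hypothalamic ADX arrays read 88.9 and 96.3 at PM, against 103 and 93.2 at AM, which overlapped. The pADX arrays read 133 and 172 at PM, against 185 and 211 at AM. Sham arrays read 426 and 421 at PM, against 171 and 137 at AM, or 2.77-fold higher at PM. The hypothalamus had both the lowest reading of the series, in an ADX PM array, and the lowest PM minus AM value in pADX rats, -0.38 on the log2 scale.

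For the frontal cortex, ADX arrays read 121 and 117 at PM, against a single AM array at 104. The pADX arrays read 166 and 132 at PM, against 178 and 173 at AM. Sham arrays read 244 and 392 at PM, against a single AM array at 170.4. The frontal cortex gave the smallest Sham difference, 0.86 on the log2 scale, and its AM values in ADX and Sham rats have no replicate.

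Amygdala arrays of ADX rats read 119 and 94.4 at PM, against 122 and 108 at AM. Those of pADX rats read 180.1 and 184 at PM, against 164 and 171 at AM. Those of Sham rats read 316 and 260.0 at PM, against 170.5 and 135 at AM. The Sham difference was 0.92 on the log2 scale, and the amygdala was the 1 region in which both pADX PM arrays read above both pADX AM arrays.

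**Figure D1:**
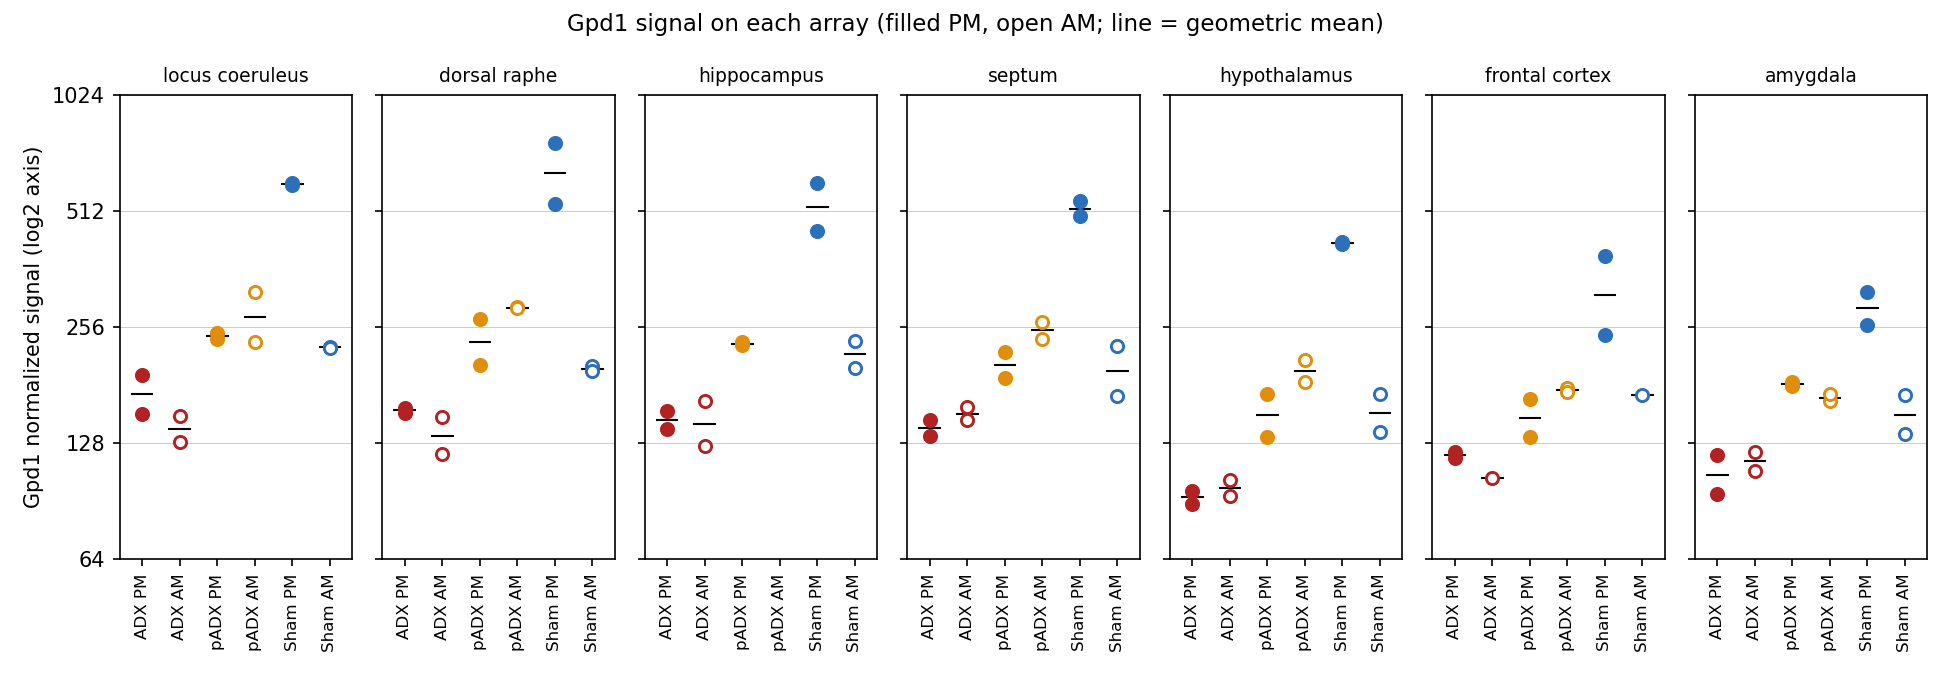
Gpd1 normalized signal (log2 axis) on each of the 80 arrays, by region and group; filled points are PM, open points AM, and short lines geometric means. In every panel both Sham PM points lie above all other points, and the ADX points lie below all others, from 88.9 in the hypothalamus to 192 in the locus coeruleus.

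**Figure D2:**
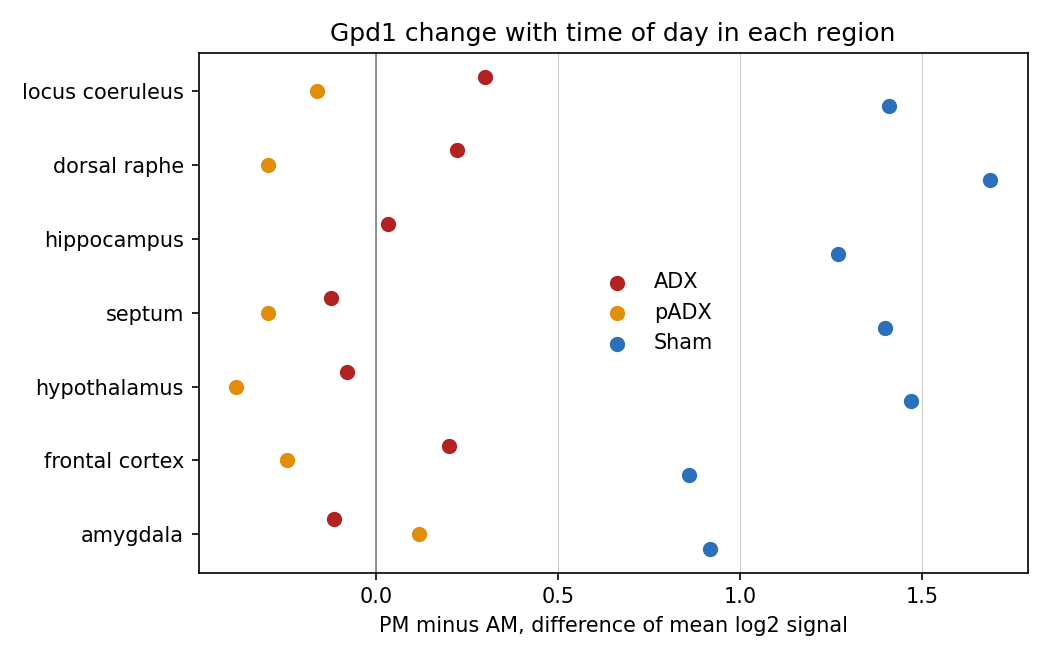
Difference of mean log2 Gpd1 signal, PM minus AM, in each region (rows) for ADX, pADX and Sham; each point rests on 2 arrays a side, or 1 at AM in the frontal cortex for ADX and Sham. Sham points lie between 0.86 and 1.69, ADX points between -0.12 and 0.30 and pADX points between -0.38 and 0.12, with none for pADX in the hippocampus.

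Set against Sham at the same time of day, Gpd1 was lower after ADX at both times, and by more at PM than at AM in each region. At PM the ADX minus Sham difference on the log2 scale ran from -2.19 in the hypothalamus, 4.58-fold lower, to -1.38 in the frontal cortex, 2.60-fold lower, with a median over the 7 regions of -1.84. At AM it ran from -0.72 in the frontal cortex to -0.37 in the septum, with a median of -0.60. No ADX array overlapped the Sham arrays in any of the 7 regions at either time. The frontal cortex held 1 array of each at AM, so overlap could not occur there. For the separation of ADX from Sham arrays, too, no share over all probe sets was counted. Over all probe sets, 0.0612% passed for ADX against Sham at PM and 0.0966% at AM. Among regions whose arrays all shared the common scale, the PM difference was -1.89 in the septum, -1.43 in the amygdala and -1.38 in the frontal cortex. In the locus coeruleus, where 4 of 4 Sham arrays and 0 of 4 ADX arrays were at that scale, it was -1.81.

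After pADX the difference from Sham changed sign with the time of day. At PM pADX arrays lay below Sham arrays in 7 of 7 regions, by -1.48 on the log2 scale in the hypothalamus to -0.65 in the amygdala, and 0.0354% of all probe sets passed for this comparison. Without the hippocampus, where the time label is in doubt, the range is the same over 6 regions. At AM the pADX mean was above the Sham mean in 6 of 6 regions, by 0.04 in the frontal cortex to 0.53 in the dorsal raphe. Arrays of the 2 groups overlapped at AM in the amygdala and not in the other 5 regions, and 0.0419% of all probe sets passed. In the frontal cortex that separation rests on 1 Sham array. ADX arrays were lower than pADX arrays at PM in 7 of 7 regions, by -0.78 to -0.32, and at AM in 6 of 6, by -1.10 to -0.55. How many of all probe sets separate in these ways was not counted.

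For a single value per treatment and time, the log2 values of the 5 regions with complete groups (locus coeruleus, dorsal raphe, septum, hypothalamus and amygdala) were averaged within each replicate number, giving 12 units. Gpd1 averaged 7.02 ± 0.09 on the log2 scale in ADX PM units and 6.98 ± 0.13 in ADX AM units (SD, n = 2 each). In pADX units it averaged 7.64 ± 0.15 at PM and 7.85 ± 0.01 at AM, and in Sham units 8.89 ± 0.01 at PM and 7.52 ± 0.16 at AM (SD, n = 2 each). The order of levels was Sham PM, pADX AM, pADX PM, Sham AM, ADX PM and ADX AM. Of the neighbours in that order, pADX PM and Sham AM overlapped, as did ADX PM and ADX AM, and the others did not.

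Averaged over regions, PM exceeded AM by 1.38 ± 0.11 in Sham rats (SE), or 2.59-fold. The same difference was 0.04 ± 0.11 in ADX rats and -0.20 ± 0.11 in pADX rats (SE). The daily change in ADX rats was thus 1.34 log2 units smaller than in Sham rats, and that in pADX rats 1.58 smaller and of opposite sign. ADX minus Sham was -1.87 at PM, 3.67-fold lower, and -0.54 at AM, 1.45-fold lower. For pADX minus Sham the values were -1.25 at PM and 0.33 at AM. Taken over both times, the mean level was 7.0 ± 0.10 in ADX units, 7.75 ± 0.15 in pADX units and 8.21 ± 0.80 in Sham units (SD, n = 4 each), the wide Sham spread being that between PM and AM.

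The second probe set, 1369560_at, read at the floor on 33 of the 80 arrays, so its differences against groups with floor values are lower bounds. Its 5-region means on the log2 scale were 4.09 in ADX PM units and 4.0 in ADX AM units. They were 4.47 at PM and 4.63 at AM in pADX units, and 5.90 at PM and 4.48 at AM in Sham units. In Sham rats its signal was thus at least 2.67-fold higher at PM than at AM, with every PM array above every AM array in 7 of 7 regions. No share over all probe sets was counted for this separation. At PM the signal of this probe set was at least 3.51-fold lower in ADX than in Sham units and at least 2.70-fold lower in pADX than in Sham units. There the frontal cortex arrays overlapped for both treatments against Sham. At AM its ADX and Sham arrays overlapped in 5 of 7 regions. The difference was negative in 5, 0 in the dorsal raphe, with all arrays at the floor, and 0.64 in the hippocampus. Its pADX and Sham arrays at AM overlapped in 6 of 6 regions, with 5 positive differences and -0.32 in the amygdala. No share over all probe sets was counted for these either. Over the 80 arrays the deviations of the 2 probe sets from their region means had a Pearson r of 0.834, and over the 66 arrays that are not Sham PM an r of 0.486. The 2 sets were read on the same arrays and report 1 gene, so their likeness is a description of the measurement.

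**Figure D3:**
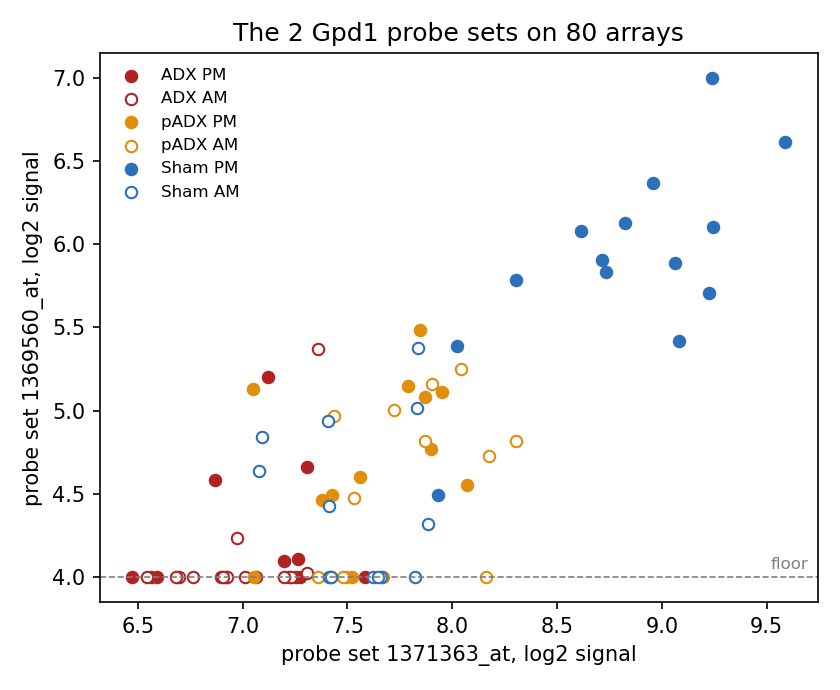
Log2 signal of 1369560_at (vertical) against 1371363_at (horizontal) on 80 arrays, coloured by treatment, filled at PM and open at AM; the dashed line is the floor of 4. Sham PM points reach the upper right, while 33 arrays, most of them ADX, sit on the floor of the second set.

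Levels between regions were not used to choose the gene and could be tested. Gpd1 differed between the 7 regions in limma's moderated F test with the 12 combinations of treatment, time and replicate as a block (Benjamini-Hochberg adjusted p = 2.93e-14), as did 65.3% of all probe sets. Signal averaged 245 in the locus coeruleus, 238 in the dorsal raphe, 224 in the hippocampus and 220 in the septum (geometric means over 10 to 12 arrays). It averaged 161 in the hypothalamus, 166 in the frontal cortex and 159 in the amygdala. Adjusted for the block, the order ran locus coeruleus, dorsal raphe, hippocampus, septum, hypothalamus, frontal cortex, amygdala. The septum exceeded the hypothalamus by 0.45 ± 0.08 on the log2 scale (SE), 1.36-fold, with a limma adjusted p of 5.17e-06, and 32.1% of all probe sets passed for this pair.

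No other pair of neighbours in that order passed in limma. The locus coeruleus minus dorsal raphe difference was 0.04 (adjusted p = 0.932, 6.51% of all probe sets passed), dorsal raphe minus hippocampus 0.05 (adjusted p = 0.742, 41.3%) and hippocampus minus septum 0.06 (adjusted p = 0.718, 23%). Hypothalamus minus frontal cortex was 0.02 (adjusted p = 0.987, 43.2%) and frontal cortex minus amygdala 0.00 (adjusted p = 1, 25.3%). The extremes, locus coeruleus and amygdala, differed 1.54-fold (limma adjusted p = 9.41e-10, 40.6% passed). The regions thus fell into 4 with higher and 3 with lower signal. The second probe set also differed between regions (limma adjusted p = 0.00464), but not along that split. Its mean log2 signal was 5.08 in the hippocampus, 4.87 in the septum, 4.70 in the locus coeruleus and 4.61 in the frontal cortex. It was 4.55 in both the dorsal raphe and the hypothalamus and 4.32 in the amygdala, with 33 of the 80 arrays at the floor.

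Oligodendrocyte markers followed a similar order. Over 19 such genes, among them the myelin genes Mbp, Mog and Mag, the mean log2 signal was 9.31 in the locus coeruleus, 9.25 in the dorsal raphe, 8.83 in the hippocampus and 8.77 in the septum. It was 8.73 in the hypothalamus, 7.97 in the amygdala and 7.72 in the frontal cortex. The Pearson r with mean Gpd1 signal over the 7 regions was 0.827, a description over 7 points whose values come from the same arrays. It was the highest among the cell marker lists compared. The next was 0.32 for oligodendrocyte precursors, with 0.10 for neurons and 0.08 for astrocytes. The lowest was -0.81, for adipocyte markers that were mostly at the floor. No such r was calculated for the second Gpd1 probe set, whose order of regions differed. The hypothalamus paired marker signal near that of the septum with Gpd1 signal near that of the amygdala.

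**Figure D4:**
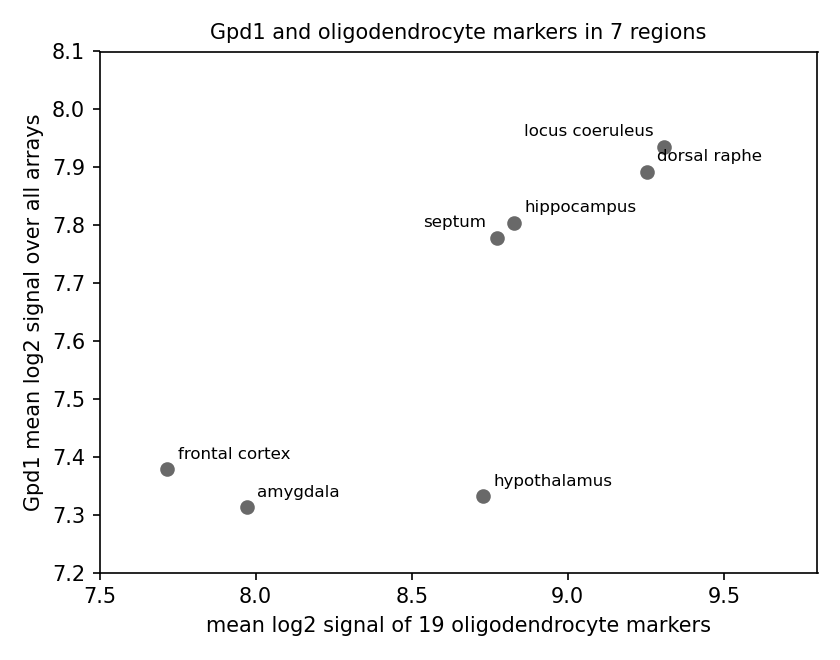
Mean log2 Gpd1 signal over all arrays of a region (vertical) against the mean log2 signal of 19 oligodendrocyte markers (horizontal), 1 point for each of 7 regions. The locus coeruleus and dorsal raphe stand highest on both axes, and the hypothalamus pairs a marker mean of 8.73 with a Gpd1 mean of 7.33.

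Whether the size of the Gpd1 change differed between the 5 regions with complete groups was tested with an interaction F test in limma. For PM against AM in Sham the unadjusted p was 0.0188 and the adjusted p over all probe sets 0.886, with 0.119% of probe sets passing. For ADX against Sham at PM the unadjusted p was 0.0159 and the limma adjusted p 0.510, with 0.145% passing. PM against AM in ADX gave a limma adjusted p of 0.584, with 0.483% passing, and in pADX 0.761, with 0.0709% passing. None of the 4 passed the threshold, so differences between regions in the size of the Gpd1 change were not resolved with 2 arrays a group.

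Of the other enzymes that make or use glycerol 3-phosphate, 11 were measured. None passed in any of the 7 comparisons of treatment or time in limma, with 0 to 2 of them at an unadjusted p under 0.05 in each, and their median PM minus AM change in Sham was 0.00, as was the median over all probe sets. Across the 7 comparisons 6.29% to 10.5% of all probe sets had an unadjusted p under 0.05. Gpd2, the mitochondrial partner in the shuttle, averaged 6.45 ± 0.02 at PM and 6.42 ± 0.11 at AM in Sham units on the log2 scale (SD, n = 2 each). Its other probe set, of nearly the same mean signal, averaged 6.42 at PM and 6.66 at AM in Sham units, a difference of -0.24 (limma adjusted p = 0.634), so the 2 probe sets disagree on the size. Gpd1l1, the rat symbol of the Gpd1-like paralogue, averaged 7.93 ± 0.03 at PM and 7.94 ± 0.02 at AM, and glycerol kinase, Gk, 5.95 ± 0.06 at PM and 5.83 ± 0.10 at AM in the same units. ADX minus Sham at PM was 0.15 for Gpd2, -0.06 for Gpd1l1 and -0.16 for Gk. The smallest p of the list in Sham belonged to Pgp, a phosphatase of glycerol 3-phosphate and phosphoglycolate, at 0.23 ± 0.04 (SE, limma adjusted p = 0.148).

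Neighbouring pathways gave the same count. None of the 8 malate-aspartate shuttle genes, which carry reducing equivalents by another route, passed in any of the 7 comparisons in limma, with 0 to 2 at an unadjusted p under 0.05. Of the 18 genes of glycolysis 0 passed, with 1 or 2 at an unadjusted p under 0.05 in each comparison. Aldoc, the brain aldolase, came nearest, with ADX minus Sham at -0.34 at PM (limma adjusted p = 0.157) and -0.30 at AM (limma adjusted p = 0.258). Of the 19 genes of triglyceride synthesis and breakdown 0 passed, with 1 to 8 at an unadjusted p under 0.05, the 8 in ADX against Sham at PM, where 8.49% of all probe sets had one. The lipid droplet gene Plin4 was 0.62 ± 0.13 higher at PM than at AM in Sham (SE, limma adjusted p = 0.255), and Pnpla2, which encodes a triglyceride lipase, was at -0.30 for ADX minus Sham at PM (limma adjusted p = 0.326).

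A list of 23 measured genes known to be induced by glucocorticoids was set beside Gpd1. For PM minus AM in Sham 18 of the 23 were positive, with a median of 0.27 against 0 over all probe sets, and none passed in limma, while 11 had an unadjusted p under 0.05, against 9.30% of all probe sets. Plekhf1 came nearest, at 0.47 (adjusted p = 0.0565), followed by the mTORC1 inhibitor Ddit4 at 0.67 (adjusted p = 0.131). For PM minus AM in ADX 16 of the 23 were also positive, with a median of 0.13 and 6 at an unadjusted p under 0.05, against 10.5% of all probe sets. In pADX 8 were positive and 14 negative, with a median of -0.06 and 4 at an unadjusted p under 0.05, against 6.29%, and none passed in ADX or pADX in limma. For ADX minus Sham at PM 22 of the 23 were negative, with a median of -0.35 and 17 at an unadjusted p under 0.05, against 8.49% of all probe sets, and 2 fell in limma, where 0.0419% of all probe sets were called lower. Sult1a1, a phenol sulfotransferase, averaged 5.26 ± 0.07 in ADX PM units and 7.37 ± 0.29 in Sham PM units on the log2 scale (SD, n = 2 each; limma adjusted p = 0.00686). Htra1, a secreted serine protease, averaged 7.76 ± 0.19 in ADX PM units and 8.74 ± 0.04 in Sham PM units (limma adjusted p = 0.0469).

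At AM 4 members of the list fell in ADX against Sham in limma, where 0.0612% of all probe sets were called lower. Sult1a1 changed by -2.0 (adjusted p = 0.0136), Htra1 by -1.23 (adjusted p = 0.0190), the metallothionein Mt2A by -0.54 and the glutamine synthetase gene Glul by -0.52 (adjusted p = 0.0378 for both). For these 4 genes PM minus AM in Sham was 0.33, -0.10, 0.00 and -0.06, none of which passed. For pADX minus Sham 19 of 23 were negative at PM, with a median of -0.17, and 18 of 23 positive at AM, with a median of 0.07, and none passed in limma at either time, with 6 at PM and 4 at AM at an unadjusted p under 0.05, against 6.92% and 8.27% of all probe sets. In limma Sult1a1 passed under 21 of 21 alternative settings at PM and at AM, and Htra1 under 17 of 21 at AM and 8 of 21 at PM, while Mt2A and Glul passed under 5 and 6 of 21, with adjusted p up to 0.310 and 0.128. Left out 1 at a time, 10 of the 12 units ended the call of Mt2A and 10 that of Glul.

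Of 17 clock genes, the output gene Dbp was the only one called. It was 0.33 ± 0.03 higher at PM than at AM in Sham (SE, limma adjusted p = 0.0392), and higher than in Sham at AM by 0.38 in ADX (adjusted p = 0.0256) and by 0.39 in pADX (adjusted p = 0.0282). The share of all probe sets called higher was 0.0354% for PM against AM in Sham, 0.0354% for ADX against Sham at AM and 0.0129% for pADX against Sham at AM. The core clock gene Per2 stood at 0.55 for PM minus AM in Sham (limma adjusted p = 0.0551). Of the 17 clock genes, 8 had an unadjusted limma p under 0.05 in that comparison, against 9.30% of all probe sets. There were also 8 for ADX against Sham at AM, against 7.99% of all probe sets, and 2 to 5 in each other comparison. The Dbp call in Sham held under 3 of 21 alternative settings in limma and was lost when any 1 unit was left out, except Sham AM replicate 2 or Sham PM replicate 2; its adjusted p ran from 0.0188 to 0.721 over those settings. The Dbp call for ADX against Sham at AM held under 7 of 21 settings (limma adjusted p 0.0115 to 0.347) and that for pADX against Sham at AM under 6 of 21 (0.00978 to 0.606). Each of these 2 calls was lost when any 1 of the 8 units outside the 2 groups compared was left out. The genes for the glucocorticoid and mineralocorticoid receptors, Nr3c1 and Nr3c2, and Hsd11b1, which regenerates active glucocorticoid, did not pass in any of the 7 comparisons in limma, with 0 to 2 at an unadjusted p under 0.05. The 2 were in ADX against Sham at AM, where 7.99% of all probe sets had one. There Hsd11b1 stood at -0.45 ± 0.07 (SE, limma adjusted p = 0.138) and Nr3c2 at 0.28 ± 0.08 (SE, limma adjusted p = 0.422).

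Genes with a pattern like that of Gpd1 were ranked by the Pearson r of log2 deviations from the region mean over 80 arrays, among 8119 genes. The median r over the probe sets ranked was -0.01. The highest was Sgk1, a glucocorticoid-induced kinase, with 0.846, followed by Tsc22d3, which encodes the glucocorticoid-induced leucine zipper, with 0.808, the efflux transporter gene Abcg2 with 0.791 and Cables1 with 0.790. Sult1a1 had 0.764, Gpatch4 0.720, Paqr8, a membrane progestin receptor, 0.719 and Mfsd2a, a lipid transporter of brain endothelium, 0.713. Timm8a1 had 0.697 and the transcription factor Klf9 0.684.

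The 10 genes did not share 1 pattern. Sgk1 had a PM minus AM difference of 1.11 in Sham, with 8.96 ± 0.54 at PM and 7.85 ± 0.03 at AM on the log2 scale (SD, n = 2 each), and at AM its ADX mean of 7.77 was close to Sham. Sult1a1 and Paqr8 instead followed treatment. Paqr8 averaged 8.93 in ADX PM units, 9.41 in pADX PM units and 9.60 in Sham PM units, with 9.60 also in Sham AM units. Over the 66 arrays that are not Sham PM, r with Gpd1 was 0.824 for Paqr8, 0.800 for Sult1a1 and 0.730 for Cables1, against 0.689 for Sgk1 and 0.334 for Gpatch4.

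**Figure D5:**
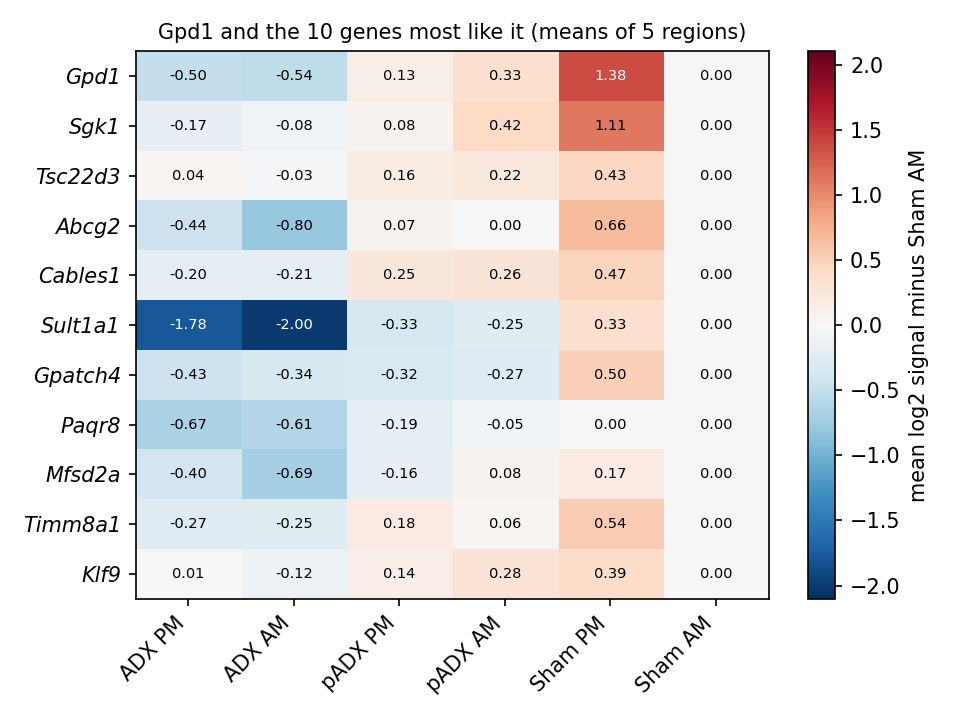
Mean log2 signal of each group minus that of Sham AM, over 5 regions, for Gpd1 and the 10 genes with the highest r to it (rows), with ADX, pADX and Sham groups in columns. Gpd1 and Sgk1 show the largest Sham PM values, 1.38 and 1.11, and Sult1a1 the lowest ADX values, -2.0 at AM.

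Markers of other cells were set beside these values. The summed linear signal of the 19 oligodendrocyte markers ran from 20889 to 22580 in ADX PM units and from 23267 to 24321 in ADX AM units. It ran from 21482 to 21702 at PM and from 21306 to 21432 at AM in pADX units, and from 21542 to 21776 at PM and from 22689 to 23075 at AM in Sham units. None of the 19 markers passed in any of the 7 comparisons in limma, with 0 to 8 at an unadjusted p under 0.05. The 8 were in ADX against Sham at PM, where 8.49% of all probe sets had one, and there 13 of the 19 were positive, with a median of 0.08. In Sham rats 19 of 19 were lower at PM than at AM, with a median of -0.11, the opposite direction to Gpd1. Gpd1 is also abundant in fat tissue. Of 7 adipocyte markers Fabp4 and Cidec were at the floor on every array, and the summed signal of the 7 lay between 113 and 120 in every unit. The summed signal of 3 blood cell markers ran from 803 to 1500 in ADX units, 1744 to 2266 in pADX units and 2560 to 3056 in Sham units at PM. At AM it ran from 699 to 918 in ADX units, 2001 to 3211 in pADX units and 3246 to 3386 in Sham units. None of the 3 passed in limma, and 2 of them had an unadjusted p under 0.05 for ADX against Sham at each time. The part of blood in the Gpd1 difference between ADX and Sham was not tested.

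The summed signal of 5 choroid plexus and ependyma markers ran from 310 to 325 in Sham units at PM, against 392 to 736 at AM, a direction opposite to that of Gpd1. In ADX units it ran from 444 to 514 at PM, against 325 to 518 at AM, and in pADX units from 374 to 423 at PM, against 410 to 651 at AM. Ttr, the choroid plexus gene for transthyretin, had a PM minus AM difference of -1.39 ± 0.73 in Sham (SE, limma adjusted p = 0.634). The 8 endothelial cell and pericyte markers summed to 1303 to 1402 in ADX units, 1199 to 1214 in pADX units and 1222 to 1307 in Sham units over both times. The sum over 6 meninges and fibroblast markers ran from 2773 to 3590 at PM, against 2302 to 2556 at AM, in ADX units. It ran from 2882 to 3313 at PM, against 2398 to 2462 at AM, in pADX units, and from 2777 to 3069 at PM, against 2812 to 3200 at AM, in Sham units. No marker of these 3 lists, nor of those for oligodendrocyte precursors, astrocytes, neurons, microglia, adipocytes and pituitary, passed in any of the 7 comparisons in limma, with 0 to 3 of a list at an unadjusted p under 0.05. The part of these cells in the Gpd1 values was not tested.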

How the data were processed

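The authors deposited 1 linear intensity per probe set for each of the 82 arrays, positive and skewed as the values show; the sources used here do not state the software or scaling behind them. Quantile normalization of these intensities across all 82 arrays was followed by a floor of 16 and a log2 transform. After removal of 57 control probe sets, 31042 were tested with no filter on dim signal. R 4.3.3 with limma 3.58.1 fitted 6 means of treatment by time over 12 units, with a mean-variance trend in eBayes. The threshold was an adjusted p of 0.05 by the Benjamini-Hochberg method.

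Titles hold no replicate number of their own: the array whose title has the letter b after the region code was taken as replicate 2 and the one without it as replicate 1. Between groups these numbers showed no pairing of samples: over 15 pairs of groups, deviations of same-numbered units correlated between -0.07 and 0.06. Whether the same number links the regions of 1 group, as the averaging over regions and the block take it, was not tested. Region tests took all 80 arrays with a group and blocked on the 12 combinations. Symbols come from the platform annotation, updated by gene ID to RefSeq names of assembly GRCr8, and 20826 tested probe sets carry 1 symbol. A gene with several probe sets is represented by that of highest mean signal.

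Named genes are Gpd1, Gpd2, Gpd1l1 and Gk, the 10 genes most like Gpd1 (mean log2 of at least 6, at most 5% of arrays at the floor), and list members past the threshold, up to 4, or otherwise up to 2 with the smallest p. The gene, its lists and these rules were chosen with earlier results of these data known. The tests of whether the daily change in ADX and in pADX differed between regions were added to the planned ones. Tested on simulated data with 31042 probe sets, the fit of PM against AM in Sham recovered 64% of changes of 0.5 log2 units and 98% of changes of 1. These changes were placed only in probe sets with a mean log2 of at least 6, under independent normal noise. The shares therefore do not cover dimmer probe sets or noise shared between probe sets, and a gene not called may still have changed. Alternatives were other scalings, floors and filters, the replicate number as a block, fewer regions and leaving out each unit.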

Additional observations from a re-analysis of the deposited data

Results flagged for a closer look

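Gpd1 changed in opposite directions with time of day in different regions of ADX and pADX rats, with every PM array on 1 side of every AM array of that region. In ADX rats PM was above AM by 0.22 on the log2 scale in the dorsal raphe and by 0.30 in the locus coeruleus, while in the septum PM minus AM was -0.12. In pADX rats PM was above AM by 0.12 in the amygdala, while PM minus AM was -0.24 in the frontal cortex, -0.30 in the septum, -0.38 in the hypothalamus and -0.30 in the dorsal raphe. With 2 arrays a side such separation is common by chance. Over the 5 regions with complete groups the differences between regions did not pass in limma (adjusted p = 0.584 in ADX and 0.761 in pADX), and the opposition of any single pair of regions was not tested.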

How the results depend on the processing

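Over the 21 alternatives to the values reported for Gpd1, PM minus AM in Sham stayed positive, and ADX minus Sham at both times and pADX minus Sham at PM stayed negative. The gene was chosen for these contrasts, so their signs are a description. Floors of 32 and 1 and the replicate block gave each of these values unchanged. Leaving out a unit outside the 2 groups compared could not change them either. Deposited values, whose median over all probe sets was -0.24 for ADX minus Sham at PM and -0.16 at AM, gave -2.19 and -0.78, and 0.20 for pADX minus Sham at AM. The septum and amygdala alone gave 1.16 for PM minus AM in Sham, -0.12 in ADX and -0.0896 in pADX, -1.66 and -0.38 for ADX minus Sham at PM and AM, and -1.0 for pADX minus Sham at PM. The second probe set, an alternative chosen after seeing the data, gave -1.43 and 0.14 for pADX minus Sham at PM and AM. Leaving out 1 unit at a time gave 1.26 to 1.49 for PM minus AM in Sham, -0.06 to 0.14 in ADX and -0.31 to -0.10 in pADX. It gave -1.94 to -1.81 and -0.65 to -0.42 for ADX minus Sham at PM and AM, and -1.36 to -1.14 and 0.22 to 0.44 for pADX minus Sham. The region test passed in every setting run (adjusted p at most 2.43e-09). PM against AM in Sham between regions passed in none (0.0730 to 1), and ADX against Sham between regions passed with deposited values alone (0.00309; 0.107 to 0.996 with 1 unit left out). Both tests already use only the 5 complete regions, so leaving out the hippocampus and frontal cortex gives them no separate value. The counts of list members called, 1 for PM against AM in Sham, 2 and 5 for ADX against Sham at PM and AM, and 1 for pADX against Sham at AM, moved with the processing, and the cause was not tested. In that order of comparison they were 0, 2, 2 and 0 with trimmed mean scaling, 0, 94, 13 and 0 with deposited values, and 3, 2, 3 and 1 with quantile normalization within regions. They were 0, 1, 2 and 2 with a floor of 32 (and 1 for PM against AM in pADX), 4, 9, 10 and 0 with a floor of 1, and 5, 13, 11 and 0 above a mean log2 of 5. The replicate block, although the numbers showed no pairing between groups, gave 0, 1, 2 and 0, as did the septum and amygdala, and leaving out the dorsal raphe gave 0, 1, 3 and 0. With 1 unit left out they ran from 0 to 3, 1 to 4, 1 to 5 and 0 to 2, and otherwise from 0 to 2 in ADX, 0 to 1 in pADX and 0 to 2 for pADX against Sham at PM.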

Other observations

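The 2 frontal cortex arrays without a treatment or time label, which entered no comparison, had a normalized Gpd1 signal of 147 and 106. Frontal cortex readings with a label ran from 104 to 392.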
